A study of Homo sapiens with 6 samples.

Results

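Small heat shock proteins and the regulators of heat shock transcription were examined in a SLAM-seq experiment on MOLM-13, a human acute myeloid leukaemia cell line. The genes were HSPB1, CRYAB and HSPB8 (small heat shock proteins), CLU and SERPINH1 (other chaperones), and HSF1, HSF2 and HSBP1 (heat shock transcription factors and their binding protein). These 8 genes, of 25420 in the deposited tables, were chosen by their known function after earlier results of the same contrast had been seen. Their differences are therefore given as a description, with no p-value. They were among the genes put through the tests below, and nothing follows from those results for them. The cells received either 10 µM C646, an inhibitor of the histone acetyltransferases CBP and p300, or DMSO for 2 h, and both groups were labelled with 100 µM 4sU (4-thiouridine) during the last 1 h. There were 3 libraries of each group. Both groups were the same cell line, with no other allele or agent in the labels, and 1 line at 1 dose and 1 time limits the results to this setting.

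Cells answer unfolded protein with the heat shock response. Heat shock factors bind promoters at repeats of a short unit, the heat shock element, and switch on chaperone genes. HSF1 is the main factor of the acute response, HSF2 can form mixed complexes with it, and HSBP1 binds the trimeric factor and is known as a negative regulator. Small heat shock proteins hold unfolded proteins without using ATP and hand them to the ATP-driven chaperones.

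In SLAM-seq, 4sU built into new RNA is alkylated and read as C instead of T, so a read with T > C conversions marks RNA made during labelling. A read without a conversion can be older RNA or new RNA in which no 4sU was read. The libraries were 3′ tag libraries, in which a transcript yields reads near its 3′ end, so that read counts do not scale with transcript length. Reads on 3′ UTRs numbered 7252597 to 10225448 per library, and 477824 to 833410 of them carried T > C. T > C reads were 8.74 to 8.86% of reads in the DMSO libraries and 6.34 to 6.71% in the C646 libraries. Levels are given in CPM (reads per 1000000 reads on 3′ UTRs), with T > C reads set against the scaled total of all reads of the same library. All 11 myeloid leukaemia markers examined were read in every library, and of 12 markers of other cell types 7 had no read in any library.

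Promoter sequences of the genes are shown first, because heat shock elements are the letters through which the factors named here act. The RefSeq promoter windows (GRCh38.p14, 250 bases before to 50 after the start) held 5 of the 8 genes, namely HSPB1, HSPB8, SERPINH1, HSF2 and HSBP1. The motif of 3 alternating units, TTCNNGAANNTTC or its other-strand form GAANNTTCNNGAA, was present in 0.490% of all 35116 windows. The motif of 2 units, GAANNTTC or TTCNNGAA, lies inside each 3-unit match and was present in 13.5% of windows. The 3 stretches below are from the plus strand, end before the start of the transcript, and show the matched letters in capitals.
SERPINH1, chr11:75562132-75562234, 3 units at 76 to 64 bases before the start: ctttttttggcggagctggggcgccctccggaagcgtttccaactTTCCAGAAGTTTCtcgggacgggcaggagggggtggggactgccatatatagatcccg
HSPB1, chr7:76302446-76302543, 2 units at 182 to 175 bases before the start: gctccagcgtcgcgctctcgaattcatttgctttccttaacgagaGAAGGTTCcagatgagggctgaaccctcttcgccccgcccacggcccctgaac
HSPB8, chr12:119178798-119178895, 2 units at 88 to 81 bases before the start (the first of 2 matches in its window, the other not shown): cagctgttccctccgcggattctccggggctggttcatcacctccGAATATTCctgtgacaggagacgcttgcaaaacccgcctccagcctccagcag

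SERPINH1 was the 1 gene of these 5 with the 3-unit motif, which 8 of 28 known HSF1 target genes with a window (HSPA6, HSPA8, HSP90AA1, HSP90AB1, HSPD1, DNAJA1, DNAJB6 and CHORDC1) also held. Counted by gene, the 3-unit motif was present in 0.608% and the 2-unit motif in 16.2% of all 27305 genes with a window. The 3-unit motif was in none of 6 other small heat shock protein genes, none of 20 HSF genes and HSF1 regulators and none of 11 collagen-folding genes. The 2-unit motif was in 3 of the 5 genes above, 18 of the 28 targets and 2 of the 6 other small heat shock protein genes. It was in 1 of the 20 HSF genes and HSF1 regulators and 1 of the 11 collagen-folding genes. The windows of HSF2 and HSBP1 held neither motif. HSPB8 held the 2-unit motif and had no read in any library. A match is a description of letters, and binding was not measured. Only exact letters were counted, so an element with other letters would be missed.

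HSPB1 (HSP27; Entrez 3315), the most abundant of the 8 genes, stood at a high level with DMSO. Its 3′ UTR entry (GRCh38, chr7:76304174-76304297) is 98.4% UTR in GENCODE 44. All reads were 1314, 1357 and 1493 CPM in the DMSO libraries and 6089.6, 7084 and 7041 CPM in the C646 libraries. The C646 libraries were all above the DMSO libraries, and the means were 1388 ± 93.6 and 6738 ± 562 CPM (SD, n = 3 each), a log2 fold change of 2.28 ± 0.13 (SE). New RNA differed by more. T > C reads were 38.8, 39.4 and 41.1 CPM with DMSO and 1286, 1337 and 1228 CPM with C646, a log2 fold change of 5.01 ± 0.13. The spread within each group was small beside this 32.3-fold difference.

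HSPB1 gave 0.0442 to 0.0476% of all T > C reads of a DMSO library and 1.80 to 2.08% of those of a C646 library. By mean T > C level it was in place 331 of 25420 genes with DMSO and in place 2 with C646. By all reads the place was 88 with DMSO and 5 with C646. At most 0.216% of its reads in any library were multimapped.

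CRYAB (αB-crystallin, a small heat shock protein best known from lens and muscle; Entrez 1410) was nearly absent with DMSO. Its entry at chr11:111908620-111908763 on the minus strand is 3′ UTR throughout. It had 0, 0 and 1 reads in the DMSO libraries and 139, 170 and 195 in the C646 libraries. No DMSO read and 98, 122 and 121 of the C646 reads carried T > C. Against a floor of 3 reads over the DMSO group, the T > C level was at least 106-fold higher with C646. For all reads the pooled ratio was 471, with an exact 95% counting interval of 84.2 to 18652 that rests on a single DMSO read. Intervals and floors here cover counting error only, since the reads had no molecular identifiers. The C646 level of 19.5 ± 1.23 CPM (SD, n = 3) was even between libraries but low, in place 6194 of 25420 genes. HSPB2, a small heat shock protein whose gene lies inside the RefSeq span of CRYAB (chr11:111912734-111914093, within 111908564-111923740), had no read in any library.

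HSPB8 (HSP22, a partner of BAG3; Entrez 26353) had no read in any of the 6 libraries on its 888-base entry at chr12:119193859-119194746. A count of 0 allows up to 0.298 to 0.416 CPM, depending on the library. BAG3 itself was among the genes with the largest differences, as given with the HSF1 target genes.

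**Figure D1:**
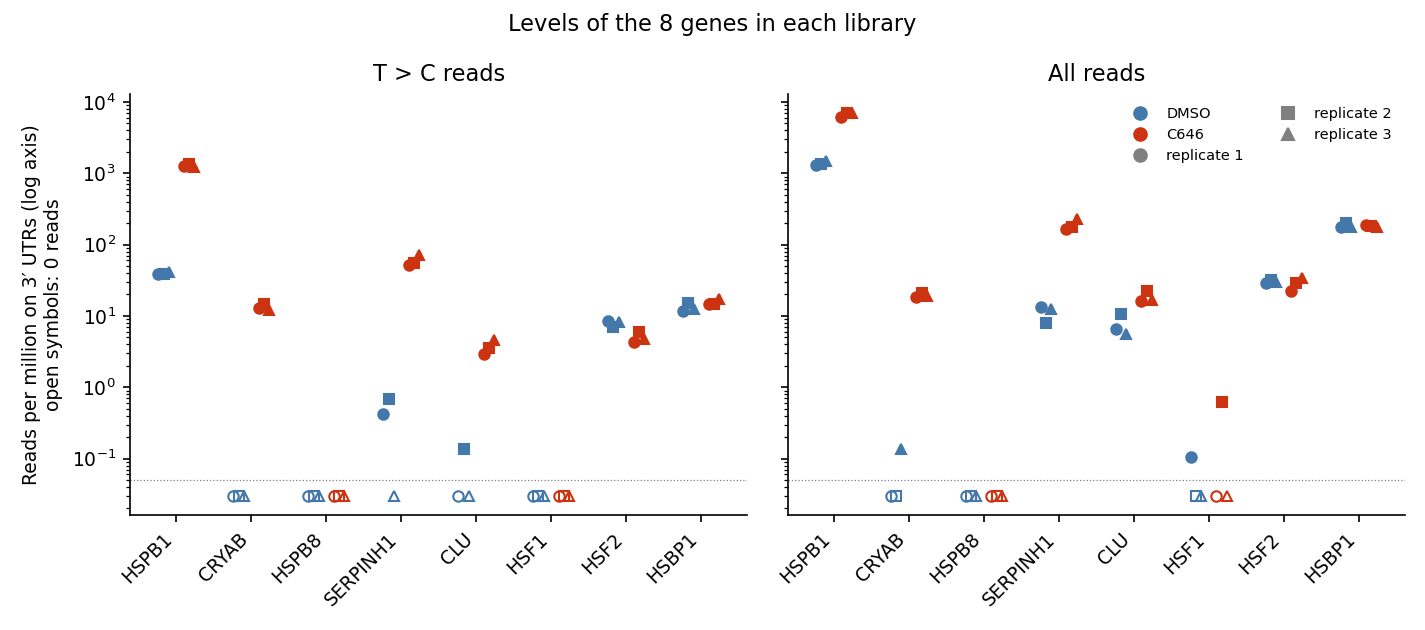
T > C reads (left) and all reads (right) of the 8 genes in CPM on a log axis, 1 symbol per library, DMSO in blue and C646 in red, with libraries without reads as open symbols below the dotted line. HSPB1, CRYAB, SERPINH1 and CLU were higher in all 3 C646 libraries on both scales, while HSBP1 overlapped between the groups on both.

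SERPINH1 (HSP47, the collagen chaperone of the endoplasmic reticulum; Entrez 871) had few reads with DMSO and a level near that of HSBP1 with C646. Its entry is chr11:75572084-75572804, of which 97.1% is UTR in GENCODE 44. All reads numbered 128, 57 and 93 with DMSO and 1258, 1457 and 2333 with C646. These are 11.3 ± 2.99 and 192 ± 34.6 CPM (SD, n = 3 each), a log2 fold change of 4.08 ± 0.21. T > C reads numbered 4, 5 and 0 with DMSO and 397, 450 and 721 with C646. The groups did not overlap, and the pooled T > C ratio was 163, with an exact 95% counting interval of 85.6 to 357. Its fitted log2 fold change of 7.27 was 7.90 without DMSO replicate 2 and 6.75 without DMSO replicate 3.

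CLU (clusterin, a secreted chaperone; Entrez 1191) showed a large ratio in new RNA and a small one in all reads. The gene has 10 entries on chromosome 8, of which 4 had reads, and the entry at chr8:27596917-27598250 (minus strand, 3′ UTR) held 89.4% of them. Summed over entries, all reads numbered 62, 76 and 42 with DMSO and 121, 181 and 167 with C646, a log2 fold change of 1.27 ± 0.26. T > C reads numbered 0, 1 and 0 with DMSO and 22, 29 and 46 with C646. The pooled T > C ratio was 90.7, with a counting interval of 15.9 to 3619 that rests on 1 DMSO read. Its fitted log2 fold change of 6.03 was 7.98 without DMSO replicate 2, which held that read. The second entry by reads, chr8:27608938-27609086, is coding sequence in GENCODE 44 and had 2, 2 and 0 reads with DMSO and 13, 17 and 13 with C646, so the higher reads were not limited to the 3′ UTR. The all-reads difference of CLU was the least secure of these genes. It lost its call without DMSO replicate 1 (1.17), without DMSO replicate 3 (1.11) or without C646 replicate 2 (1.11).

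HSF1 (Entrez 3297), the main factor of the response, could not be measured in these tables. Its entry at chr8:144314331-144314722 is listed with 1, 0 and 0 reads in the DMSO libraries and 0, 5 and 0 in the C646 libraries, none with T > C. The entry lies at the start of a run of 20 neighbouring entries of 15 genes, up to position 144423886, in which no entry had more than 5 reads in any library and 13 had none at all. The run includes DGAT1, SLC52A2, CPSF1, SLC39A4 and VPS28, named here after their values were seen. The entry just before the run, of SCX, had 45 to 119 reads per library, and BOP1 before it had 1240 to 1755. After the run, TONSL had 153 to 378, all multimapped, and KIFC2, with 2 multimapped reads in all, had 117 to 308. The values of HSF1 therefore say nothing of its level in these cells, and the cause of the run was not tested.

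HSF2 (Entrez 3298) was the gene among these with a lower level of new RNA after C646. Its main entry is chr6:122432221-122433119, which is UTR throughout and holds 99.3% of its reads. T > C reads numbered 81, 50 and 61 with DMSO and 33, 49 and 48 with C646. On the CPM scale they were 8.54, 6.93 and 8.21 against 4.36, 6.0 and 4.76, without overlap, and the log2 fold change of -0.65 ± 0.28 did not reach the limits for a call. The median over all 7722 genes tested was -0.83, so HSF2 lay 0.18 above the median gene. Where libraries were scaled on T > C reads instead, which moved the median of all genes by 0.84, its sign turned (0.19). All reads overlapped, at 29.4, 32.0 and 29.5 CPM against 22.4, 29.3 and 34.5 CPM.

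HSBP1 (Entrez 3281) hardly differed between the groups. Its main entry is chr16:83811421-83813002, UTR throughout, with 98.0% of its reads. All reads were 177, 199 and 177 CPM with DMSO and 189, 180 and 178 CPM with C646, a log2 fold change of -0.02 ± 0.13. T > C reads were 11.9, 15.0 and 12.7 CPM with DMSO and 14.8, 14.7 and 17.3 CPM with C646, a log2 fold change of 0.25 ± 0.21. Both pairs of groups overlapped. HSBP1 thereby lay 1.08 above the median gene in T > C reads, and with libraries scaled on T > C reads it was called higher (1.08).

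A gene was called where its adjusted p did not exceed 0.01 and its log2 fold change was 1 or more in either direction (edgeR's quasi-likelihood test, Benjamini-Hochberg adjustment over all genes tested). Of the 8 genes, 6 passed the filter on low counts in T > C reads, and 4 (HSPB1, CRYAB, SERPINH1 and CLU) were called higher, beside 2.97% of all genes tested. Of these 4, CRYAB, SERPINH1 and CLU passed that filter through their C646 reads alone, and HSPB1 reached it in both groups. In all reads 4 of 6 were called higher, beside 5.89% of all genes. None was called lower, beside 33.0% of all genes in T > C reads and 1.88% in all reads. Since the genes were selected on this contrast, nothing follows from these counts. The called gene nearest to the fold limit was CLU in all reads (1.27), and the genes not called, HSBP1 (-0.02) and HSF2 (-0.07), were not near it there.

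The order of levels differed between the groups. By all reads in DMSO the order was HSPB1, HSBP1, HSF2, SERPINH1, CLU, then CRYAB, HSF1 and HSPB8 near or at 0. SERPINH1 and CLU overlapped there. With C646 the order was HSPB1, SERPINH1, HSBP1, HSF2, CRYAB and CLU, where SERPINH1 and HSBP1 overlapped, as did CRYAB and CLU.

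The share of a gene's reads that carry T > C needs no scaling between libraries. HSPB1 had 2.95, 2.90 and 2.75% with DMSO and 21.1, 18.9 and 17.4% with C646. This is below the whole-library share with DMSO and above it with C646. SERPINH1 had 3.13 and 8.77% in the first pair of DMSO libraries and 0 of 93 reads in the third, which allows a share of up to 3.23%, against 31.6, 30.9 and 30.9% with C646. CLU had 0 of 62 reads (allowing up to 4.84%), 1.32% and 0 of 42 reads (allowing up to 7.14%) with DMSO. With C646 CLU had 18.2, 16.0 and 27.5%. CRYAB had 70.5, 71.8 and 62.1% with C646, the highest shares of these genes, and its 1 DMSO read gave no share to compare.

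The regulators differed from this. HSF2 had high shares already with DMSO (29.0, 21.6 and 27.9%) and lower ones with C646 (19.5, 20.5 and 13.8%), without overlap. HSBP1 had 6.73, 7.53 and 7.15% with DMSO and 7.84, 8.18 and 9.69% with C646, so its share was higher in each C646 library while that of the whole library was lower. In the model of T > C against other reads, the log2 odds ratios were 3.00 ± 0.10 for HSPB1, 3.68 ± 0.46 for SERPINH1, 5.08 ± 0.87 for CLU, 0.29 ± 0.19 for HSBP1 and -0.72 ± 0.35 for HSF2 (SE). The median gene stood at -1.0. HSPB1, SERPINH1 and CLU were called higher, beside 0.790% of all genes. As the genes were selected on this contrast, nothing follows from these calls. Without DMSO replicate 2 the log2 odds ratio was 6.74 for CLU and 4.54 for SERPINH1, and without DMSO replicate 3 that of SERPINH1 was 3.07. CRYAB was not called, and with 1 DMSO read its odds ratio is not given.

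**Figure D2:**
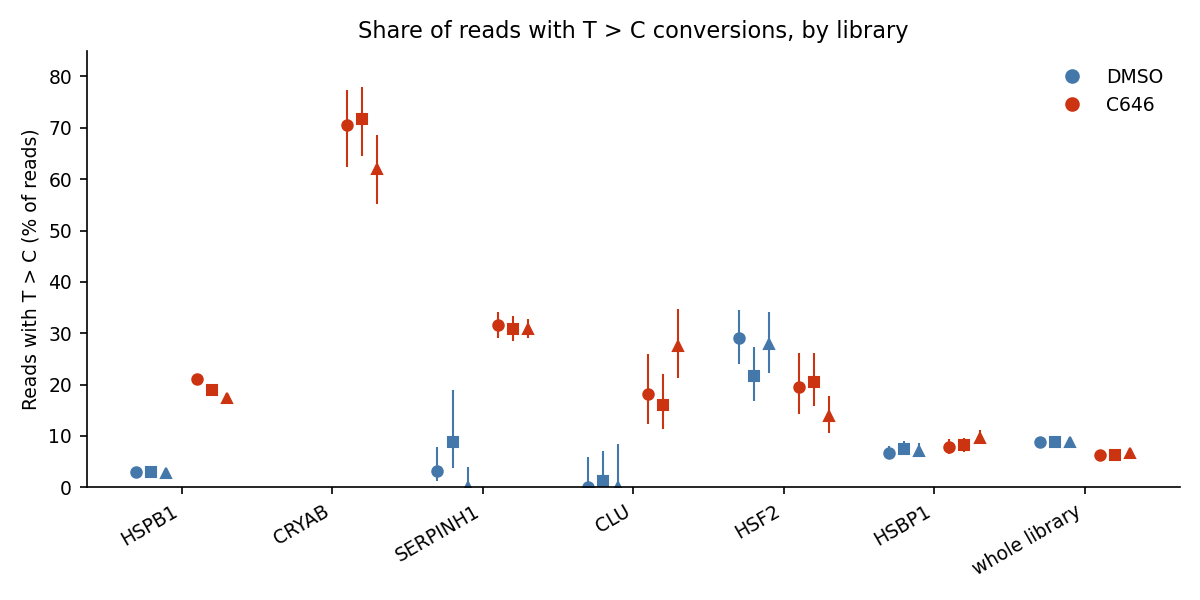
Share of reads with T > C (%) by gene and library, with 95% Wilson intervals for counting error, DMSO in blue and C646 in red, and the whole library at the right without intervals. CRYAB is drawn for C646 only; its shares of 62.1 to 71.8% are the highest, and HSF2 is the gene whose shares are lower with C646.

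Reads differ in how many T they cover, which sets the chance of a conversion. Per covered T, conversions of HSPB1 were 0.194 ± 0.011% with DMSO and 1.34 ± 0.14% with C646 (SD, n = 3). The whole libraries had 0.632 to 0.662% and 0.416 to 0.432%. SERPINH1 had 1.75 to 1.96%, CLU 1.56 to 2.19% and CRYAB 5.45 to 7.77% with C646. HSF2 had 1.27 to 1.91% with DMSO and 0.80 to 0.916% with C646. The order of the genes by this measure in C646 libraries thus had CRYAB clearly first, while SERPINH1 and CLU overlapped.

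The gain in all reads was then split into reads with and without T > C. HSPB1 gained 5351 ± 562 CPM over the DMSO mean, of which 23.4 ± 2.81% carried T > C (SD over the 3 C646 libraries). The part with T > C was 32.9 ± 0.661% for SERPINH1, 36.1 ± 13.2% for CLU and 68.3 ± 5.29% for CRYAB. HSPB1 reads without T > C were 1348 ± 92.4 CPM with DMSO and 5455 ± 565 CPM with C646. Those of SERPINH1 were 10.9 ± 3.24 and 132 ± 24.3 CPM. For comparison, the part was 11.1 to 92.4%, with a median of 32.6%, over the 20 HSF1 target genes called higher in all reads. Reads with C646 covered 27.3, 36.2, 20.5 and 25.4 T on average for HSPB1, SERPINH1, CLU and CRYAB, so CRYAB did not have the most T per read.

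The genes with the most similar T > C profile over the 6 libraries were found by Euclidean distance of centred log2 values. This likeness was sought among the same 6 libraries and carries no test. For HSPB1 they were TDRG1 (0.44), LUCAT1 (0.46) and DNAJA4 (0.61). NGFR (0.48), HMOX1 (0.90) and HSPA1B (1.61) were nearest to CRYAB, and HSPA1B (2.52), CRYAB (2.76) and NGFR (2.85) to SERPINH1. Where a gene or its neighbour has no or few DMSO reads, the distance depends on the prior count of 0.5. This holds for TDRG1 and LUCAT1, whose fitted T > C differences (log2, 7.12 and 6.95) exceeded that of HSPB1 (5.01). PLAGL2 (0.18), USP9X (0.21) and LSM4 (0.21) were nearest to HSF2, and RIOK3 (0.12), LAPTM4A (0.16) and ERH (0.17) to HSBP1.

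The other small heat shock proteins had few or no reads, HSPB11 excepted, and a count of 0 on an entry does not show that a gene is silent. Of 8 further genes of the family, HSPB2, HSPB3, CRYAA, HSPB9 and ODF1 had no read in any library. HSPB6 had 4 to 12 reads with DMSO and 2 to 4 with C646, and HSPB7 had 8 to 15 and 3 to 19. HSPB11 (IFT25, a part of the ciliary transport complex) was the 1 gene tested in T > C reads, with 16 to 28 against 8 to 14 reads and a log2 fold change of -0.96 ± 0.50 (edgeR adjusted p = 0.10). Its all reads stood at 0.24 ± 0.17 (edgeR adjusted p = 0.32). HSPB11 passed the filter on low counts through its DMSO reads alone. The odds model called it lower (-1.26), beside 38.3% of all genes. That call was lost without DMSO replicate 1 or 2, without C646 replicate 2 or 3, and with the replicate number as a block. None of those tested (1 in T > C reads, 2 in all reads) was called higher, beside 2.97% and 5.89% of all genes. With so few genes tested, nothing follows from this.

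Known HSF1 target genes, with the genes above left out, were mostly called higher in new RNA. Like the other lists, this one was chosen with earlier results of these data known. Its counts are therefore a description, from which nothing follows for the genes above. Of 30 genes, 28 were tested in T > C reads, 27 were called higher and none lower, beside 2.97% and 33.0% of all genes, with a median log2 fold change of 2.77 beside -0.83 over all genes tested. Of the 27, HSPA6, HSPA1B, HSPA1A, HSPA4L and RGS2 passed the filter on low counts through their C646 reads alone, and 22 reached it in both groups. PTGES3 stayed under the fold limit (0.96). The odds model called 14 of 28 higher, beside 0.790% of all genes, and HSPA1B (-1.85, with 1 DMSO read), RGS2 (-1.84) and IER5 (-0.82), not called there, had lower T > C odds with C646. The largest fitted rises were those of HSPA6, HSPA1B and HSPA1A, inducible HSP70 genes. HSPA6 had 0 to 2 T > C reads with DMSO and 5440 to 7220 with C646. HSPA1B had 0 to 1 against 133 to 323. HSPA1A had 0 against 21 to 37, at least 25.2-fold higher against a floor of 3 reads over the DMSO group, and its place above BAG3 (pooled ratio 56.5) rests on the prior count of the fit. HSPA1A and HSPA1B are near-identical copies, so their reads could have been split between them or lost. BAG3, the partner of HSPB8, had 18 to 27 against 1120 to 1779. In all reads 20 of 28 were called higher, beside 5.89% of all genes, with a median of 1.86 beside -0.0030 over all genes. The log2 fold changes of HSPB1 in T > C and all reads (5.01 and 2.28) and of SERPINH1 (7.27 and 4.08) lay above both medians of these targets, while CLU in all reads (1.27) lay below. HSPA1L and CHORDC1, not tested, had 0 and 0 to 5 reads.

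**Figure D3:**
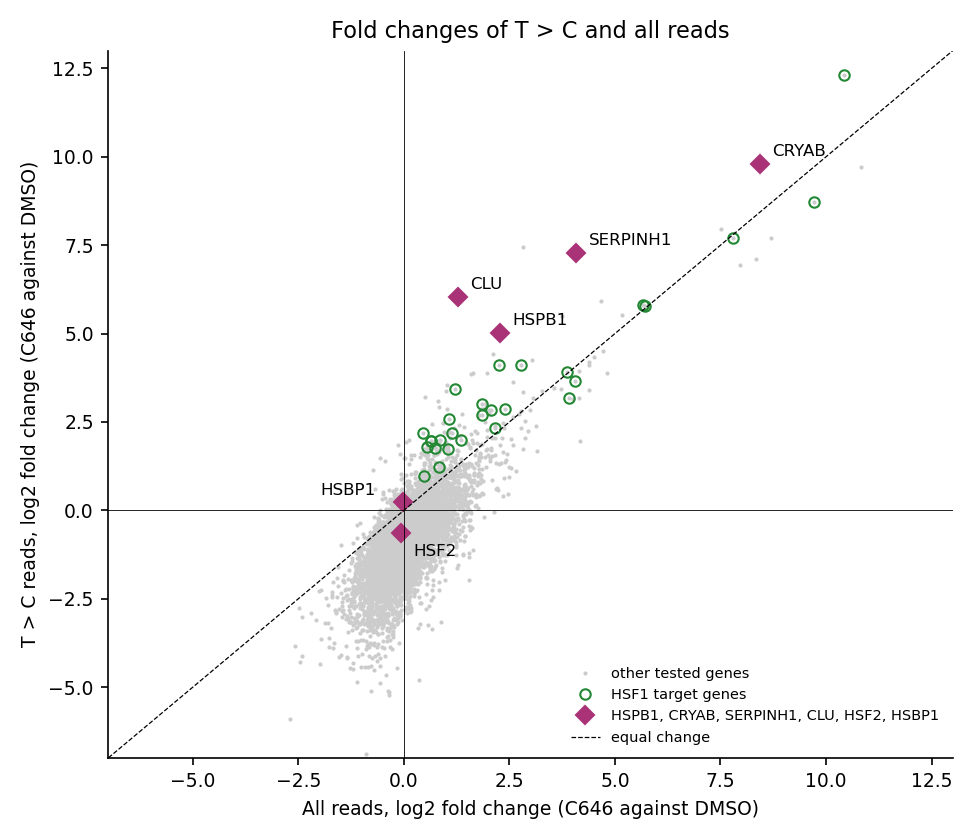
Log2 fold change (C646 against DMSO) of all reads (x) and T > C reads (y) for each gene tested in both, with known HSF1 targets as green circles and 6 of the 8 genes as purple diamonds. CLU, SERPINH1 and HSPB1 lie above the line of equal change, and HSBP1 and HSF2 lie near 0 on the x axis. Fitted values of CRYAB and CLU depend on the prior count, since they had 0 and 1 T > C reads with DMSO.

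Genes known to bind, modify or turn over HSF1, and other HSF genes, had calls in new RNA in a share near that of all genes. Of 22 genes, 16 were tested in T > C reads, 6 were called lower, beside 33.0% of all genes, and none higher, beside 2.97%. Their median was -0.81, beside -0.83 over all genes. The largest falls were those of STUB1 (-2.32 ± 0.55) and FBXW7 (-2.21 ± 0.26), both ubiquitin ligase genes, and of SMARCA4 (-2.01 ± 0.36), a chromatin remodelling ATPase. The edgeR adjusted p was 4.76e-08 for FBXW7. AKT1, PLK1 and MTOR were the other genes called lower. STUB1, SMARCA4 and AKT1 passed the filter on low counts through their DMSO reads alone. The odds model called 8 of 16 lower, beside 38.3% of all genes, and 4 without DMSO replicate 3. MAPK8, among the 8, likewise passed that filter through its DMSO reads alone. With libraries scaled on T > C reads, 1 gene was called lower in place of 6. EP300 and CREBBP, the targets of C646, were not called in T > C reads (-0.79 ± 0.20 and -0.12 ± 0.26). In all reads 20 genes were tested and 3 rose, beside 5.89% of all genes. These were SYMPK (1.79), AKT1 (1.55) and HSBP1L1 (1.23), the paralog of HSBP1. This count was 1 without DMSO replicate 3. AKT1 thereby fell in new RNA and rose in all reads. Its all reads were uneven with DMSO, at 46 to 258, against 343 to 604 with C646. Its T > C reads were few, at 13 to 29 with DMSO and 4 to 7 with C646. HSF4 had at most 8 reads in a library, and HSF5 had none.

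SERPINH1 acts on collagen, and collagens and their folding factors were taken as a list. Of 15 genes, 6 were tested in T > C reads. Of these, 2 were called higher and 1 lower, beside 2.97% and 33.0% of all genes. COL1A1 (2.75 ± 0.62) and P4HA1 (2.72 ± 0.32), a subunit of prolyl hydroxylase, rose, and P4HB, its other subunit, fell (-1.17 ± 0.19; edgeR adjusted p = 1.16e-05). The odds model called 1 of 6 higher (P4HA1) and 2 lower (P4HB and CRTAP), beside 0.790% and 38.3% of all genes. The call of P4HB in T > C reads was lost, and 4 genes were called higher, with libraries scaled on T > C reads. COL1A1 had 1 to 9 T > C reads with DMSO and 24 to 27 with C646. COL1A1 and P4HA1 both passed the filter on low counts through their C646 reads alone. COL1A1 is also a fibroblast marker. The summed level of that list of 3 genes was 0.808 to 2.32 CPM with DMSO and 5.69 to 6.75 CPM with C646, all of it COL1A1, while COL1A2 and DCN had no read in any library. In all reads COL1A1, P4HA1 and P4HA2 rose, 3 of 9 tested beside 5.89% of all genes. P4HA2 had no read with DMSO and 22 to 50 with C646. COL3A1, PLOD2 and FKBP10, like COL1A2, had no read in any library.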

How the data were processed

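The authors aligned reads to GRCh38 with SLAM-Dunk 0.4.1 and deposited raw counts of reads, T > C reads and conversions on 58136 3′ UTR entries, with the number of T covered as a coverage signal. The deposited CPM column was not used for tests. The study's own test used reads with at least 2 conversions, which the deposited T > C counts do not separate. Entries were summed per Entrez gene, and 25310 of 25420 genes were matched to a RefSeq symbol.

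Here, edgeR 4.0.16 (R 4.3.3) was fitted to all genes, and DESeq2 1.42.0 was an alternative. T > C counts were scaled by the TMM-scaled totals of all reads, and genes were kept by filterByExpr. The edgeR, DESeq2 and odds fits were tested on simulated data, and the other steps were not. The 8 genes and the lists were chosen with earlier results of these data known. In each list, the 3 called genes with the largest rise and the largest fall in T > C reads were named, and any further gene was named after its values were seen. Where 1 of the 8 genes averaged 50 or more T > C reads, its 3 nearest genes were named. No label ties replicates to separate cultures, so p-values measure the spread between libraries, which may be technical. No unlabelled library was analysed here, so T > C reads include sequencing errors. Counting intervals are 95% (exact or Wilson). Alternatives covered scaling, tool, filter, entry choice, a replicate block and leaving out each library.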

Additional observations from a re-analysis of the deposited data

How the results depend on the processing

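The calls of HSPB1, CRYAB, SERPINH1 and CLU in T > C reads held under each scaling, with DESeq2 and without a filter. They also held with 1 entry per gene and without each library, while requiring 50 T > C reads removed CLU. These genes were selected on this contrast, so the calls remain a description. With libraries scaled on T > C reads, HSF2 turned from -0.65 to 0.19 (TMM) or 0.16 (DESeq2), and HSBP1 went to 1.08 or 1.05. Leaving out each library, all reads of HSF2 ranged from -0.23 to 0.084 (turning without C646 replicate 1) and those of HSBP1 from -0.043 to 0.039 (turning without DMSO replicate 2 or C646 replicate 3). Scaling on T > C reads, by TMM or DESeq2, left 1 HSF1 regulator lower in place of 6, and 4 collagen-folding genes higher and 0 lower in place of 2 and 1. Over all genes this scaling gave 717 higher and 596 lower (TMM) in place of 229 and 2548. Requiring 50 T > C reads left 2 HSF1 regulators lower in T > C reads and 2 in the odds model, 1 collagen-folding gene higher in T > C reads and 1 lower in the odds model, and 0 of the other small heat shock proteins. That filter left 2843 of all genes tested in T > C reads, 125 of them called higher and 1038 lower. Leaving out each library gave 1 to 3 regulators higher in all reads, and, in the odds model, 0 to 1 other small heat shock proteins lower, 4 to 9 regulators lower (8 with all libraries) and 1 to 2 collagen-folding genes higher. The cause was not tested. With the replicate number as a block, HSPB1 was 5.01 in T > C reads and 2.28 in all reads, 4 genes were called higher in both, and 4 regulators were lower in T > C reads. In the odds model with that block 0 other small heat shock proteins were called. Libraries of the same number correlated at 0.021 to 0.055 in T > C reads and -0.0043 to 0.23 in all reads, against -0.049 to 0.016 and -0.22 to 0.15 for different numbers. In T > C reads each library thus correlated best with its own number, as a hint from the data, but the values stayed under the 0.1 set for pairing and no label ties the numbers. Depth limits CRYAB, CLU and SERPINH1, whose DMSO libraries held 0 to 5 T > C reads each.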
